A study of Mus musculus with 12 samples.

Results

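Imprinted growth genes were read on arrays of mouse pituitary RNA: Dlk1, Meg3, H19, Igf2, Cdkn1c, Peg3, Grb10, Mest, Plagl1 and Ndn. Members were all probes named for these 10 genes or for a synonym in the scanner files, control features left out. The genes were 10 of 22327 named on the array. Their probes were 20 of 39429, and all 20 were among the 24533 kept after a filter on dim probes. Mest and Meg3 had 3 probes each, Plagl1 had 4, Dlk1, H19 and Peg3 had 2, and Igf2, Cdkn1c, Grb10 and Ndn had 1. The reference table lists M6pr as a synonym of Igf2, but the 2 probes of that name belong to another gene and were left out.

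The glands came from 12 female mice of the inbred strain C57BL/6J, 2 months old, with 4 animals per group. The early life group lacked vitamin D in its diet only early in life. The peripubertal group lacked it only around puberty, and the control group ate a normal diet. The labels call the animals biological replicates, and give neither the start and end of each window nor the animals' litters. Each of the 6 arrays carried 2 animals of 1 group, the odd-numbered in the dye Cy3 and the even-numbered in Cy5, so array-mates were not independent.

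Imprinted genes are transcribed mainly from the copy inherited from 1 parent, under marks set in the germ line. As a class, those expressed from the paternal copy tend to promote fetal growth and those expressed from the maternal copy tend to restrain it. Many are silenced after birth in most organs. The adult pituitary is known for keeping Dlk1 and Meg3 active, and loss of MEG3 is a known feature of human pituitary tumours. Their expression is often studied as a possible record of early nutrition.

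The probes are 60 bases long, and their positions are on mouse build mm9 per the file headers. The paternally expressed Dlk1 and the maternally expressed Meg3 lie in 1 imprinted domain of chromosome 12. The maternally expressed H19 and Cdkn1c and the paternally expressed Igf2 lie in neighbouring domains near the end of chromosome 7. Probes 2 and 3 of Meg3 and both probes of H19, both genes of long non-coding RNAs, are shown because those of each gene read the same locus at separate places. Positions, in the order shown, are chr12:110799558-110799617 and chr12:110809678-110809737 on the plus strand for Meg3, and chr7:149761492-149761551 and chr7:149762417-149762476 on the minus strand for H19.
Meg3 probe 2: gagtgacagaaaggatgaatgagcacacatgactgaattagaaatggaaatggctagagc
Meg3 probe 3: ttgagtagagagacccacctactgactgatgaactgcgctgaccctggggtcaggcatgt
H19 probe 1: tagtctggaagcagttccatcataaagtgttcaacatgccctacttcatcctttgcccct
H19 probe 2: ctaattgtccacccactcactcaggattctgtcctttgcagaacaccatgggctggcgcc

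The protein-coding members were read at these places. Dlk1 was read at chr12:110698502-110698561 (probe 1) and chr12:110698721-110698781 (probe 2), Igf2 at chr7:149839661-149839720 and Cdkn1c at chr7:150644753-150644812. Mest was read at chr6:30692160-30692219, chr6:30697385-30697444 and chr6:30698279-30698338 (probes 1, 2 and 3), and Peg3 at chr7:6658774-6658833 and chr7:6661407-6661466. Plagl1 was read at chr10:12848421-12848480, chr10:12848851-12848910, chr10:12850832-12850891 and chr10:12851280-12851339 (probes 1 to 4), Ndn at chr7:69493847-69493906 and Grb10 at chr11:11833165-11833224. Exon and UTR annotation of this build was not used here.

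Before the results, 3 features of the files bear on every value. A slide of its own held both control arrays, so its effect and that of diet cannot be told apart in either comparison with control, while the 4 early life and peripubertal arrays shared a slide. The authors' value table files the 8 deficient-diet channels under the other deficient group than the scanner files do, with log2 values equal within 1e-06. The scanner files' names are used throughout, and under the table's assignment each value given for early life belongs to peripubertal and the reverse, with replicates 1 and 2 of each group filed as 3 and 4 of the other, and 3 and 4 as 1 and 2. The scanner software marked outlier spots in each dye. Spots marked in either dye were 6.54% to 7.34% of those on early life arrays, 3.85% to 5.08% on peripubertal arrays and 1.68% to 1.90% on control arrays. A spot marked in either dye was left out here in both, so both animals of the array lost its value at once. Of the 20 member probes, 9 lacked a value in at least 2 samples. The tissue's hormone genes were bright in all groups: Prl, which encodes prolactin, read 17.78 to 18.20 in early life, 16.99 to 18.01 in peripubertal and 16.89 to 18.24 in control samples, as log2 intensity. Gh, which encodes growth hormone, read 17.85 and 18.75 in the 2 early life samples with a value, 17.53 to 18.72 in peripubertal and 18.06 to 18.54 in control samples. Pomc, the precursor of ACTH, read 16.83 to 18.34, 17.46 to 18.31 and 16.47 to 18.46 in the same groups.

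No member probe passed the test in any comparison (limma, two-sided, Benjamini-Hochberg adjusted over all kept probes, threshold 0.05). For early life against control, 0 of 18 probes passed, where 0.0927% of all probes did, and for peripubertal against control 0 of 20 passed, where 0.0207% did. For early life against peripubertal, 0 of 18 passed, where 0.386% did. At an unadjusted p under 0.05 the counts were 5 of 18, 0 of 20 and 6 of 18 in the same order, beside 17.2%, 4.98% and 20.2% of all probes. Where both groups had all 4 values, the groups did not overlap for 1 of 11, 1 of 16 and 2 of 12 member probes, beside 12%, 7.45% and 17.3% of all probes. The shares of members without overlap lay near those over all probes.

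The members' differences spread to both sides. Their median log2 difference was −0.13 for early life against control (range −1.74 to 1.35), beside 0.01 over all probes. It was −0.15 (range −0.48 to 0.50) for peripubertal against control, beside 0.00 over all probes, and 0.02 (range −1.45 to 1.31) for early life against peripubertal, beside 0.02 over all probes. Both comparisons with control share the control samples, and both comparisons with early life share the early life samples. Differences that involve early life had the wider ranges. Levels of different probes are not set against each other.

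**Figure D1:**
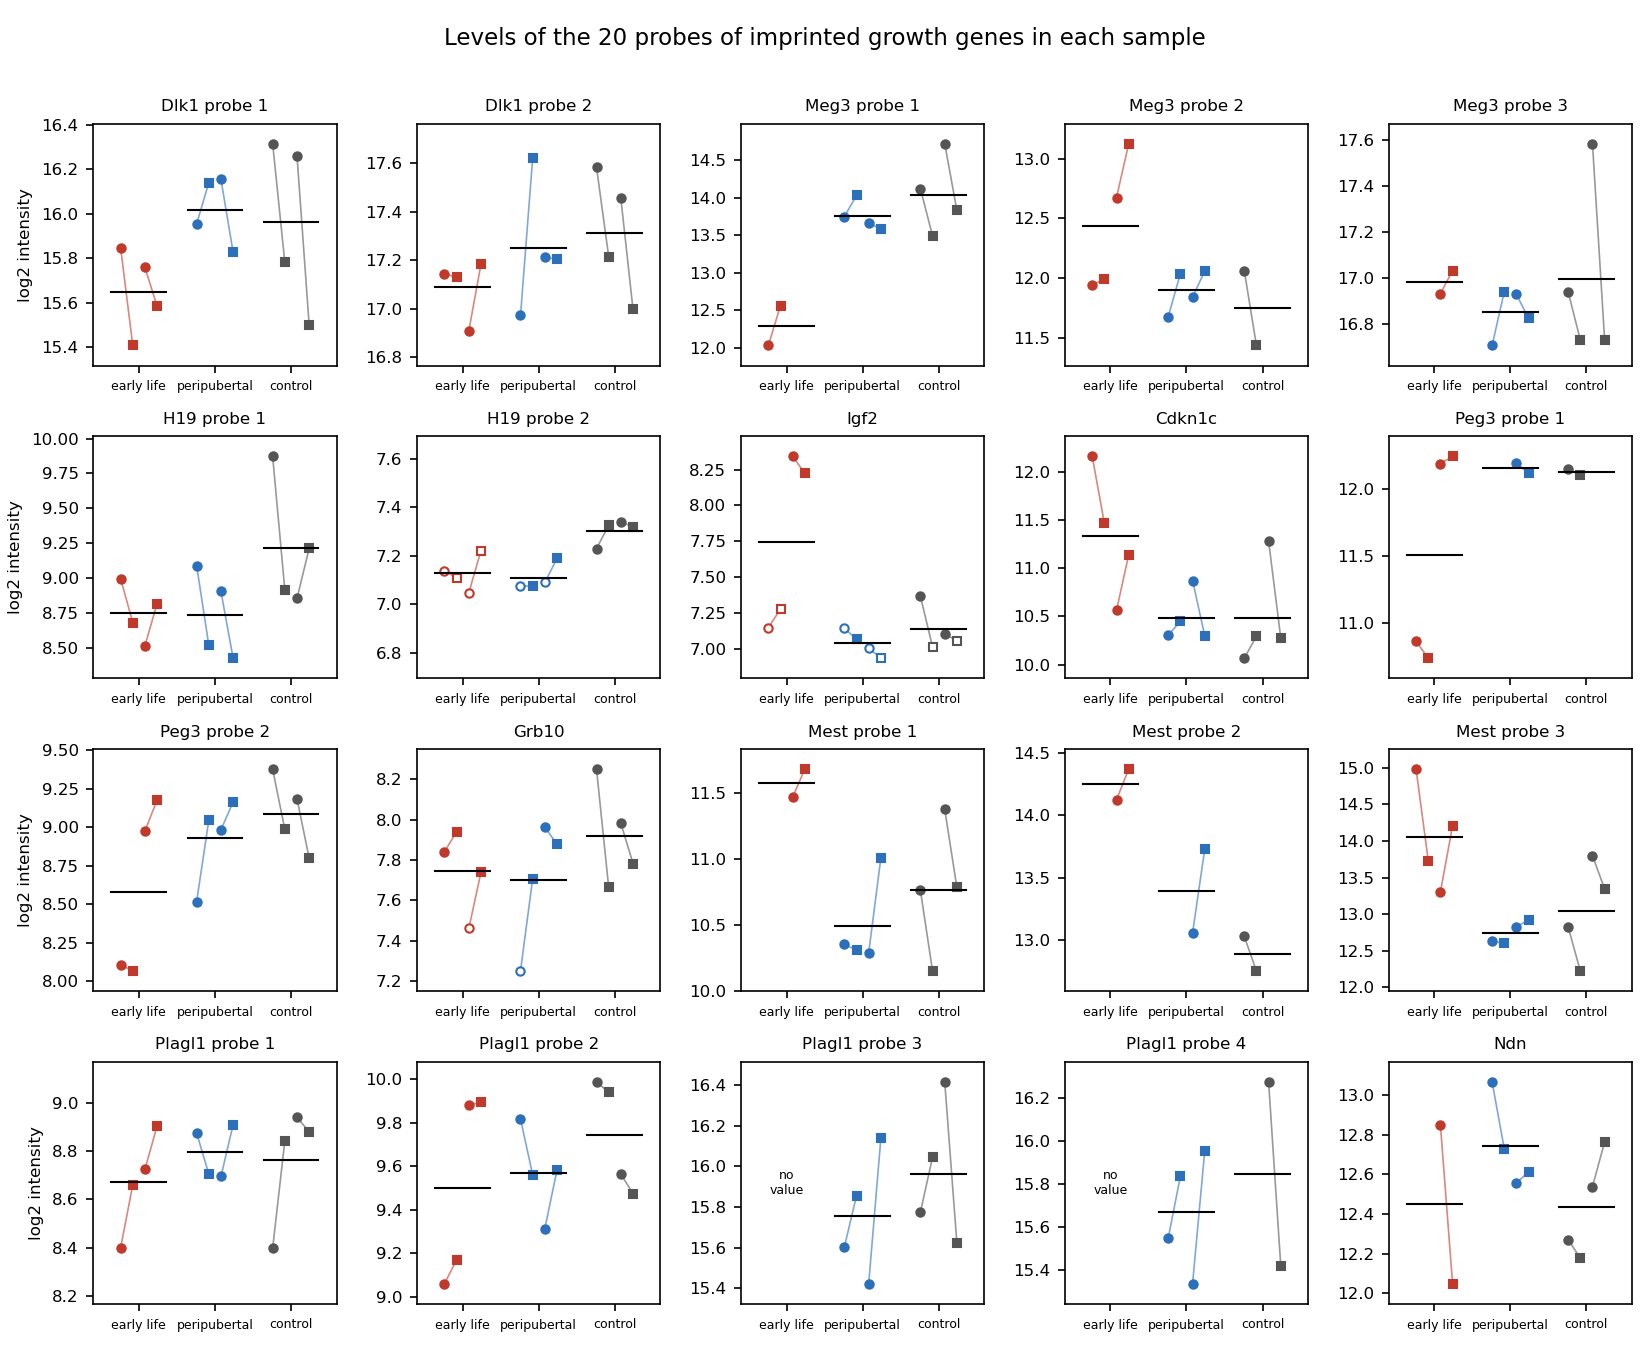
Log2 intensity of each of the 20 probes (vertical axis, its own span in each panel, at least 1 log2 unit) in early life (red), peripubertal (blue) and control samples (grey). Circles are Cy3 and squares Cy5, a line joins the 2 animals of an array, open symbols were not well above background and black bars are group means. Early life values of Peg3 probes 1 and 2, Plagl1 probe 2 and Igf2 fall into 2 pairs that follow the arrays, and Plagl1 probes 3 and 4 have no early life value.

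Among the paternally expressed genes, Mest, which encodes an enzyme of the alpha/beta hydrolase fold known from growing fetal mesoderm, had the widest spread over samples. Its probe 3, printed as 10 spots on each array, read 14.98, 13.73, 13.30 and 14.21 in early life samples 1 to 4, 12.62, 12.60, 12.83 and 12.92 in peripubertal samples and 12.83, 12.22, 13.80 and 13.34 in control samples (log2 intensity). All 4 early life values lay above all 4 peripubertal values, while early life and control overlapped in control samples 3 and 4. The mean was 14.06 ± 0.72 in early life, 12.74 ± 0.15 in peripubertal and 13.05 ± 0.68 in control samples (SD, n = 4 each). The log2 difference was 1.31 (SE 0.43, limma adjusted p = 0.147, 95% interval 0.37 to 2.26) for early life against peripubertal and 1.01 (SE 0.43, adjusted p = 0.269) for early life against control. Peripubertal differed from control by −0.30 (SE 0.43, adjusted p = 0.9995). Usable spots of the probe within a channel numbered 4 to 10, and their SD was 0.16 to 0.44, below the SD between early life animals.

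The other Mest probes had fewer values, since their spots were marked as outliers on the array of early life 1 and 2. Probe 1 read 11.47 and 11.68 in early life samples 3 and 4, 10.35, 10.31, 10.29 and 11.01 in peripubertal samples and 10.76, 10.15, 11.37 and 10.78 in control samples. Probe 2 read 14.12 and 14.37 in early life samples 3 and 4, 13.06 and 13.73 in peripubertal samples 3 and 4, and 13.03 and 12.75 in control samples 1 and 2. On both probes the measured early life values lay above all others. Early life against peripubertal differed by 1.08 (SE 0.39, limma adjusted p = 0.176) on probe 1 and 0.85 (SE 0.34, adjusted p = 0.243) on probe 2, and early life against control by 0.81 (SE 0.39, adjusted p = 0.317) and 1.35 (SE 0.34, adjusted p = 0.179). With the marked spots counted, probe 1 read 10.86 and 11.07 in early life samples 1 and 2, within the control range, and its early life difference from control was 0.50 (SE 0.33, adjusted p = 0.472). Probe 2 then read 14.17 and 13.78 in early life samples 1 and 2, against 14.21 and 13.65 in control samples 3 and 4, and its early life difference from control was 0.70 (SE 0.33, adjusted p = 0.342). All 3 probes thus gave early life the highest group mean, with or without the marked spots, and none passed.

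For Mest probe 3 the order of group means was early life, control, peripubertal, and no neighbours in that order differed by the test. Without early life sample 3 the difference from peripubertal was 1.64 (SE 0.36, limma adjusted p = 0.0329). Without the array of early life 3 and 4 it was 1.61, and without that of early life 1 and 2 it was 1.01. Such fits were added after seeing the data and leave early life 1 array. In them array cannot be told apart from diet. Early life sample 1 was the highest of all 12.

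**Figure D2:**
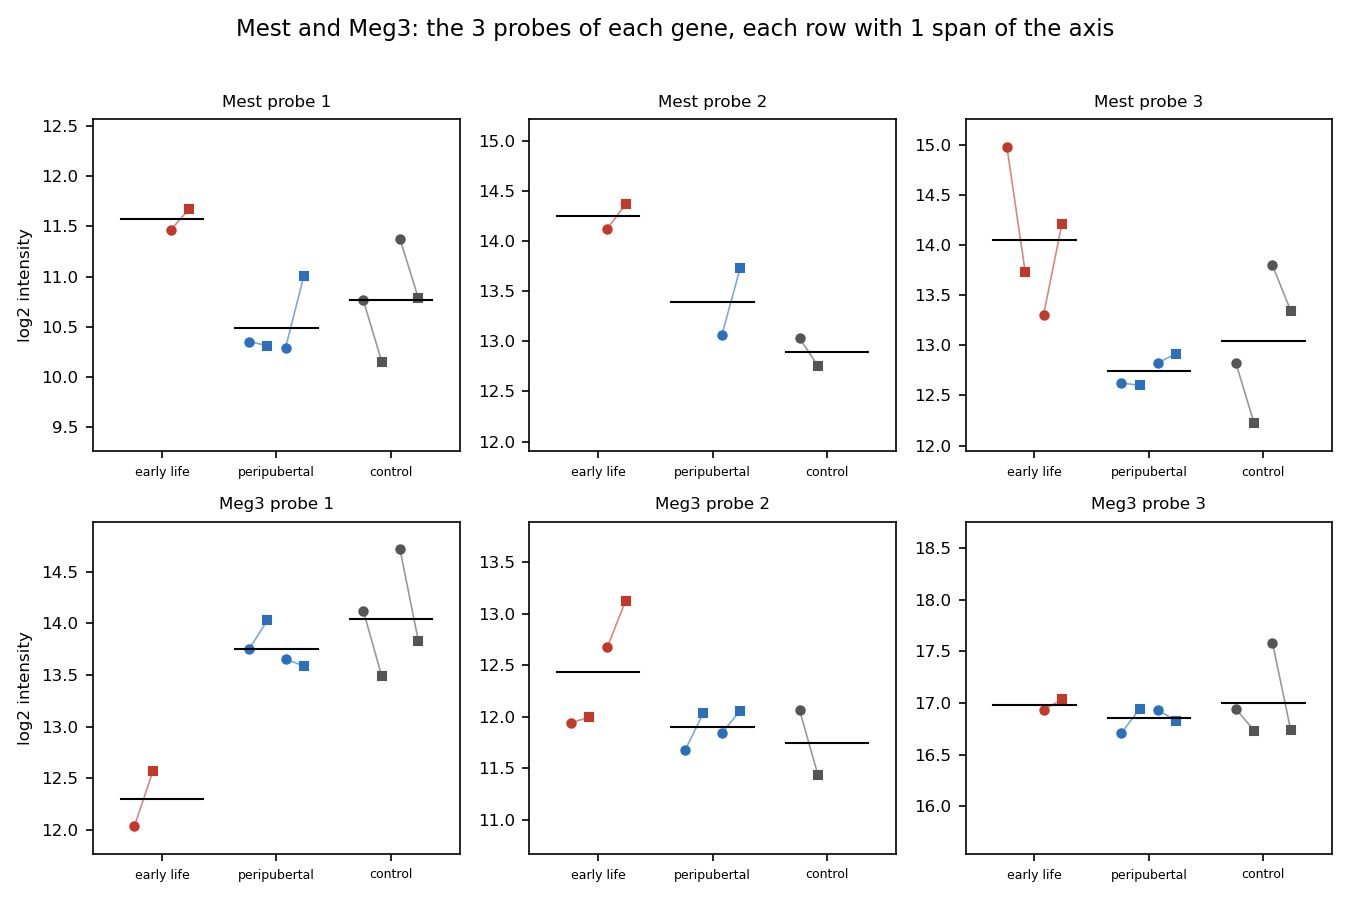
Log2 intensity of the 3 probes of Mest (upper panels) and of Meg3 (lower panels) in early life (red), peripubertal (blue) and control samples (grey), with symbols, lines and bars as in the plot of all probes and the same span of axis in the panels of a gene. The 3 Mest probes have their highest group mean in early life, while the 3 Meg3 probes differ in which group is lowest.

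Dlk1 encodes a transmembrane protein of the Notch ligand family that holds back the differentiation of progenitor cells, and is made by hormone cells of the gland. Probe 1 read 15.85, 15.41, 15.76 and 15.58 in early life samples, 15.95, 16.14, 16.16 and 15.83 in peripubertal samples and 16.32, 15.78, 16.26 and 15.50 in control samples. Probe 2 read 17.14, 17.13, 16.91 and 17.18 in early life samples, 16.97, 17.62, 17.21 and 17.20 in peripubertal samples and 17.58, 17.22, 17.46 and 17.00 in control samples. All groups overlapped on both probes. The difference of early life from peripubertal was −0.37 (SE 0.18, limma adjusted p = 0.268) on probe 1 and −0.16 (SE 0.21, adjusted p = 0.695) on probe 2. From control it was −0.32 (SE 0.18, adjusted p = 0.374, 95% interval −0.71 to 0.07) and −0.22 (SE 0.21, adjusted p = 0.617, 95% interval −0.69 to 0.24). Peripubertal against control gave 0.05 (95% interval −0.34 to 0.44) and −0.06 (95% interval −0.53 to 0.41). With each channel centred on its median in place of the array scaling, the early life differences from control were 0.066 on probe 1 and 0.19 on probe 2. That centring moved the median difference of all probes to 0.13, so relative to it probe 1 stayed below and probe 2 lay slightly above.

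Igf2, the fetal insulin-like growth factor, was near background in the adult gland. It was well above background in 2 of 4 early life, 1 of 4 peripubertal and 2 of 4 control samples. Early life samples 1 to 4 read 7.15, 7.28, 8.34 and 8.22, peripubertal samples 7.14, 7.07, 7.004 and 6.93, and control samples 7.37, 7.01, 7.10 and 7.06. Early life 3 and 4, which shared an array, were the only samples above 8, and early life 1 and 2 lay within the control range. Early life did not overlap peripubertal, although early life 1 at 7.15 stood beside peripubertal 1 at 7.14, and the difference was 0.71 (SE 0.25, limma adjusted p = 0.168). Against control it was 0.61 (SE 0.25, adjusted p = 0.260), and peripubertal against control was −0.10 (SE 0.25, adjusted p = 0.9995). Without the array of early life 3 and 4 the differences were 0.18 from peripubertal and 0.08 from control. Without that of early life 1 and 2 they were 1.25 and 1.15. Each of these fits, added after seeing the data, had 1 early life array, so array cannot be told apart from diet. The Igf2 values above background in early life thus came from 1 array.

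Peg3, a zinc finger protein that acts in growth and maternal behaviour in mice, also followed the arrays. Probe 1 read 10.87, 10.74, 12.19 and 12.24 in early life samples, 12.19 and 12.12 in peripubertal samples 3 and 4, and 12.15 and 12.11 in control samples 1 and 2. Probe 2 read 8.11, 8.07, 8.98 and 9.18 in early life samples, 8.52, 9.05, 8.98 and 9.16 in peripubertal samples and 9.38, 8.99, 9.19 and 8.80 in control samples. On both probes early life 1 and 2 were the lowest of all samples, and early life 3 and 4 lay among the others. The difference of early life from peripubertal was −0.65 (SE 0.47, limma adjusted p = 0.463) on probe 1 and −0.35 (SE 0.29, adjusted p = 0.512) on probe 2. From control it was −0.62 (SE 0.47, adjusted p = 0.529) and −0.51 (SE 0.29, adjusted p = 0.380). Without the array of early life 3 and 4 the differences from control were −1.32 and −0.999. Without that of early life 1 and 2 they were 0.09 and −0.01. Here too each fit, added after seeing the data, had 1 early life array, so array cannot be told apart from diet.

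Plagl1 encodes a zinc finger transcription factor that can arrest the cell cycle and regulates other imprinted genes. Probe 2 read 9.06, 9.17, 9.88 and 9.90 in early life samples, 9.82, 9.56, 9.31 and 9.58 in peripubertal samples and 9.99, 9.94, 9.56 and 9.47 in control samples. Here again early life 1 and 2 were the lowest of the 12 and early life 3 and 4 lay within the control range. Probe 1 ran from 8.40 to 8.90 in early life, from 8.70 to 8.91 in peripubertal and from 8.40 to 8.94 in control samples. Early life differed from control by −0.09 (SE 0.16, limma adjusted p = 0.798) on probe 1 and −0.24 (SE 0.23, adjusted p = 0.614) on probe 2. Probes 3 and 4 had no early life value. Peripubertal and control averaged 15.76 ± 0.31 and 15.96 ± 0.35 (SD, n = 4 each) on probe 3, and their difference was −0.21 (SE 0.28, adjusted p = 0.9995). On probe 4 that difference was −0.18 (SE 0.39, adjusted p = 0.9995), with 2 control values. With the marked spots counted, early life averaged 15.76 ± 0.76 on probe 3 and 15.87 ± 0.49 on probe 4, against 15.76 ± 0.31 and 15.67 ± 0.28 in peripubertal and 15.96 ± 0.35 and 15.88 ± 0.35 in control samples (SD, n = 4 each).

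Ndn encodes necdin, a growth suppressor of postmitotic cells. It read 12.85 and 12.05 in early life samples 3 and 4, 13.07, 12.73, 12.56 and 12.61 in peripubertal samples and 12.27, 12.18, 12.54 and 12.76 in control samples. The 2 early life values, from animals of 1 array, lay on either side of the control range. The difference of early life was −0.29 (SE 0.29, limma adjusted p = 0.593) from peripubertal and 0.01 (SE 0.29, adjusted p = 0.988) from control, and peripubertal against control was 0.30 (SE 0.24, adjusted p = 0.9995). With the marked spots counted, early life 1 and 2 read 11.78 and 11.91, below all other samples, and the early life differences were −0.59 (SE 0.27, adjusted p = 0.258) from peripubertal and −0.29 (SE 0.27, adjusted p = 0.617) from control.

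Among the maternally expressed genes, the 3 probes of Meg3, the long non-coding RNA introduced above, did not give the same order of groups. Probe 1 read 12.03 and 12.56 in early life samples 1 and 2, 13.75, 14.03, 13.66 and 13.59 in peripubertal samples and 14.12, 13.49, 14.72 and 13.83 in control samples. Probe 2 read 11.94, 11.996, 12.68 and 13.13 in early life samples, 11.68, 12.04, 11.84 and 12.06 in peripubertal samples, and 12.06 and 11.44 in control samples 1 and 2. Probe 3 read 16.93 and 17.03 in early life samples 3 and 4, 16.71, 16.94, 16.93 and 16.83 in peripubertal samples and 16.94, 16.73, 17.58 and 16.73 in control samples. Early life was lowest on probe 1 and highest in mean on probe 2, and overlapped both other groups on probe 3.

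The probe 1 difference was the largest in size of any member. It was −1.74 (SE 0.38, limma adjusted p = 0.118, 95% interval −2.60 to −0.88) for early life against control and −1.45 (SE 0.38, adjusted p = 0.111, 95% interval −2.31 to −0.60) for early life against peripubertal. These values rest on the 2 early life animals of 1 array, since on the other array the spot was marked as an outlier. Counted, that spot read 14.16 and 14.07 in early life 3 and 4, within the control range, and the differences were −0.83 (SE 0.48, adjusted p = 0.417) and −0.55 (SE 0.48, adjusted p = 0.542). Early life 3 had no value on this probe, so leaving that sample out removed none of the values behind the difference. The limma adjusted p against control was then 0.0461, in a setting where 694 of all probes passed. Without the array correlation in the fit it was 0.0283, where 784 of all probes passed. On probe 2 early life differed from control by 0.68 (SE 0.37, adjusted p = 0.369) and from peripubertal by 0.53 (SE 0.31, adjusted p = 0.348). On probe 3 the differences were −0.01 (SE 0.28, adjusted p = 0.985) and 0.13 (SE 0.28, adjusted p = 0.815). Peripubertal against control ran from −0.28 to 0.15 over the 3 probes, at adjusted p-values of 0.9995.

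H19, the non-coding RNA that shares an imprinting control region with Igf2 and is expressed from the opposite parental copy, was read by both probes shown above. Probe 1 read 8.996, 8.68, 8.51 and 8.82 in early life samples, 9.09, 8.52, 8.90 and 8.42 in peripubertal samples and 9.87, 8.92, 8.85 and 9.21 in control samples. Probe 2 read 7.14, 7.11, 7.05 and 7.22 in early life samples, 7.08, 7.07, 7.09 and 7.19 in peripubertal samples and 7.23, 7.33, 7.34 and 7.32 in control samples. On probe 2 all 8 deficient-diet values lay below all 4 control values, while on probe 1 the groups overlapped. Probe 2 was well above background in 0 of 4 early life, 2 of 4 peripubertal and 4 of 4 control samples, so its early life level is only a bound, its early life differences are those of dim values, and no fold is given.

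On H19 probe 1 the difference from control was −0.46 (SE 0.27, limma adjusted p = 0.386) for early life and −0.48 (SE 0.27, adjusted p = 0.9995) for peripubertal. On probe 2 the difference of peripubertal from control was −0.20 (SE 0.10, adjusted p = 0.9995). Both probes put control highest. With both control arrays on a slide of their own, diet cannot be told apart from slide here. Early life and peripubertal, on a shared slide, differed by 0.02 on probe 1 (SE 0.27, adjusted p = 0.975, 95% interval −0.57 to 0.60).

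Cdkn1c encodes p57, an inhibitor of cyclin-dependent kinases that takes pituitary progenitors out of the cell cycle in mice. It read 12.16, 11.47, 10.56 and 11.14 in early life samples, 10.31, 10.45, 10.87 and 10.30 in peripubertal samples and 10.07, 10.29, 11.28 and 10.28 in control samples. Early life samples 1 and 2 were above all others, early life 4 was above all peripubertal values, and control 3 reached into the early life range. The mean was 11.33 ± 0.67 in early life, 10.48 ± 0.27 in peripubertal and 10.48 ± 0.54 in control samples (SD, n = 4 each). The difference of early life was 0.85 from peripubertal (SE 0.38, limma adjusted p = 0.241) and 0.85 from control (SE 0.38, adjusted p = 0.285). Peripubertal against control was 0.00 (SE 0.38, adjusted p = 0.9996, 95% interval −0.83 to 0.84). Without the array of early life 3 and 4 both early life differences were 1.33, and without that of early life 1 and 2 both were 0.37. These fits were added after seeing the data and held 1 early life array each, so array cannot be told apart from diet.

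Grb10, an adaptor that binds the insulin and IGF1 receptors and restrains growth, was dim. It was well above background in 3 of 4 early life, 3 of 4 peripubertal and 4 of 4 control samples. Early life samples read 7.84, 7.94, 7.46 and 7.74, peripubertal samples 7.25, 7.71, 7.96 and 7.88, and control samples 8.25, 7.66, 7.98 and 7.78. The groups overlapped, with differences of 0.05 for early life against peripubertal (SE 0.22, limma adjusted p = 0.924), −0.17 for early life against control (SE 0.22, adjusted p = 0.711) and −0.22 for peripubertal against control (SE 0.22, adjusted p = 0.9995).

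**Figure D3:**
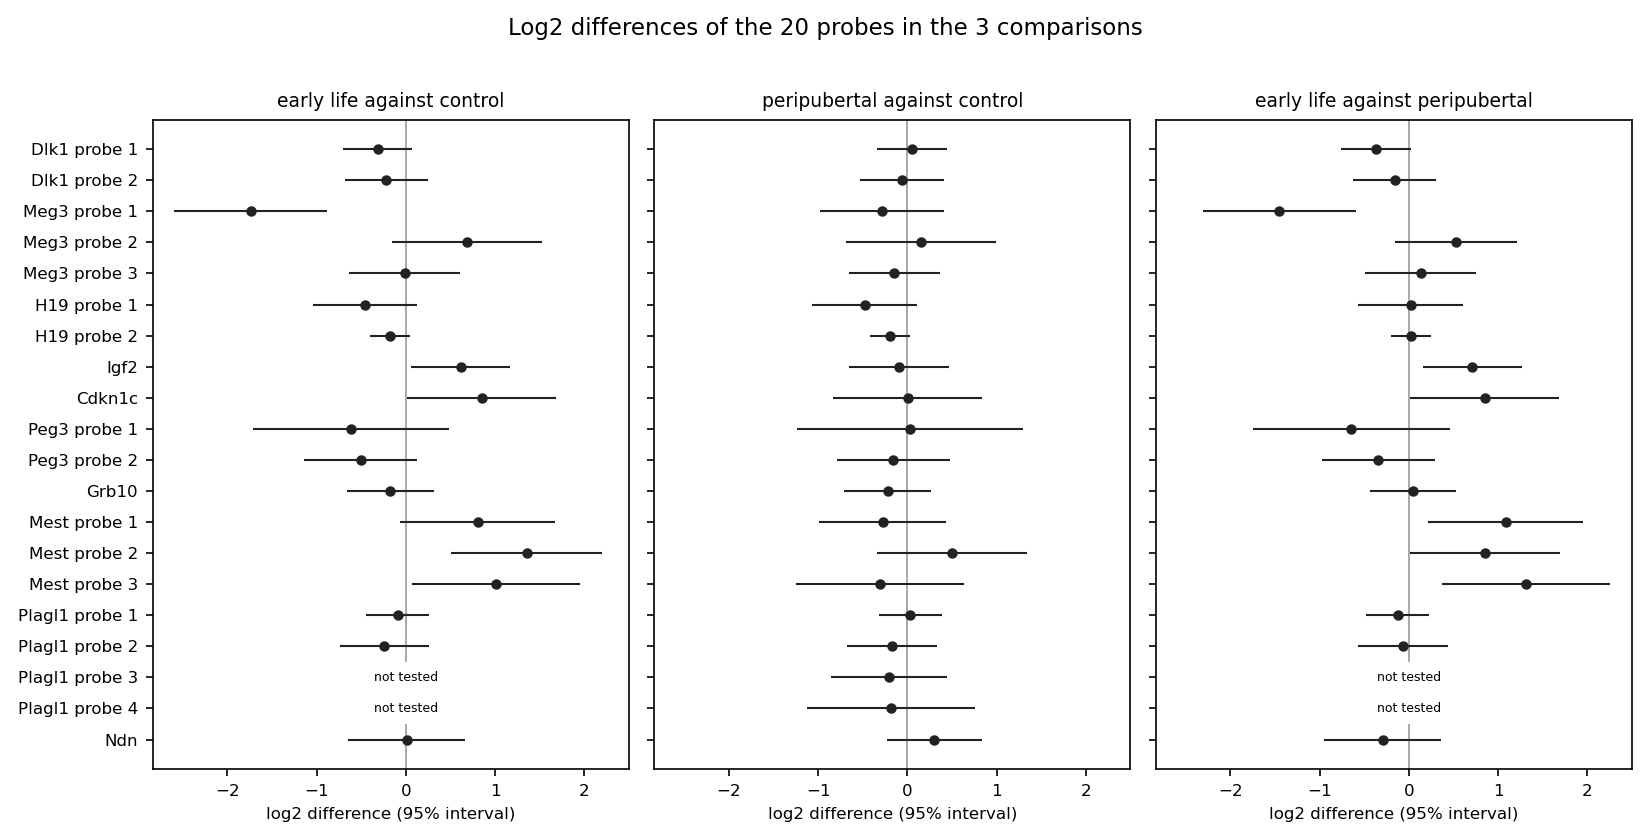
Log2 difference of each probe (points) with its 95% interval (lines) from the limma fit, for early life against control, peripubertal against control and early life against peripubertal. Points right of 0 are higher in the group named first, the largest differences are those of Meg3 probe 1 (−1.74) and Mest probe 2 (1.35) for early life against control, and in the middle panel every interval includes 0.

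Read by channel, no member depended on dye by the test. The Cy5 minus Cy3 log2 difference ran from −0.34 (Dlk1 probe 1, SE 0.11, limma adjusted p = 0.325) to 0.21 (Mest probe 2, SE 0.20, adjusted p = 0.782). Dlk1 probe 1 averaged 15.71 ± 0.27 in Cy5 and 16.05 ± 0.23 in Cy3 (SD, n = 6 each). The fit carries dye as a term, and each group held both dyes equally.

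Array-mates were also set beside the other pair of their group. Where a group had all 4 values, the 2 animals of 1 array lay on the same side of the other 2 for 8 of 13 member probes in early life, 6 of 18 in peripubertal and 5 of 16 in control samples. Over all kept probes the shares were 51.6%, 52.5% and 33.8% in the same groups. Some splits arise by chance even where array-mates are no more alike than other animals, so a split alone does not show that array-mates read alike. In early life the split probes were Peg3 probes 1 and 2, Plagl1 probes 1 and 2, Igf2, Meg3 probe 2, Cdkn1c and Grb10. Control samples split on Plagl1 probes 1 and 2, Mest probes 1 and 3 and Ndn. With 2 animals per array, a difference between arrays and a difference between pairs of animals cannot be told apart.

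Genes that act with the members gave few calls. Other imprinted genes are grouped by the parental copy they were listed under, and which copy was expressed was not measured. Among other paternally expressed imprinted genes, 0 of 14 measured genes of 24 listed passed for early life against control (median log2 difference 0.13), 0 of 17 for peripubertal against control (0.00) and 0 of 14 for early life against peripubertal (0.14). The 3 of smallest p, none past the threshold, were Peg12 (0.90), Ins2 (0.28) and the non-coding Airn (0.37) for early life against control. They were Zim3 (−0.25), Ins2 (0.21) and Nnat (0.29) for peripubertal against control, and Peg12 (0.93), Airn (0.57) and Snrpn (−0.44) for early life against peripubertal. Their smallest limma adjusted p was 0.107, 0.991 and 0.0686 in these comparisons, the first and last for Peg12, which lies near Ndn in the domain related to Prader-Willi syndrome. Among other maternally expressed genes, 0 of 21 measured of 28 listed passed for early life against control (median 0.04), 0 of 23 for peripubertal against control (0.07) and 0 of 21 for early life against peripubertal (0.01). The 3 of smallest p were Th (0.36), Klf14 (1.39) and Kcnq1 (−0.96), then Asb4 (−0.67, n = 2 per group), Blcap (−0.51) and Copg2 (−0.40), then Klf14 (2.02), Kcnq1 (−1.27) and Kcnk9 (1.17). None passed, at smallest adjusted p-values of 0.182, 0.9995 and 0.0966. Klf14, a transcription factor gene of the imprinted domain that also holds Mest, averaged 11.35 in early life, 9.33 in peripubertal and 9.97 in control samples.

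Of the IGF and insulin signalling genes, 0 of 17 measured of 20 listed passed for early life against control (median 0.14), 0 of 16 for peripubertal against control (0.15) and 0 of 16 for early life against peripubertal (0.11). Irs1, a docking protein of the insulin and IGF1 receptors, differed by −1.20 (SE 0.27, limma adjusted p = 0.121) for early life against control and by −1.49 (SE 0.33, adjusted p = 0.0913, 2 peripubertal values) for early life against peripubertal. Igfbp3, which carries IGFs in blood, differed by −0.98 (SE 0.31, adjusted p = 0.179) and −1.59 (SE 0.31, adjusted p = 0.0557), and Igf1 by 0.46 (SE 0.12, adjusted p = 0.102) for early life against peripubertal. Igf2bp3, a fetal RNA-binding protein that binds Igf2 transcripts, was well above background in 2 of 4 early life, 3 of 4 peripubertal and 0 of 4 control samples. It averaged 7.83 in early life, 7.37 in peripubertal and 6.48 in control samples (log2 intensity, limma adjusted p = 0.130 and 0.949 against control). No fold is given, since values not well above background entered each mean. Igfbp1 (1.34) and Insr (0.26) completed the 3 of smallest p for peripubertal against control, and none of these genes passed.

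In the Notch pathway, to which Dlk1 is related by structure, Dll4 was the only listed gene to pass. It encodes a Notch ligand of endothelial cells, and read 6.96, 6.85, 7.09 and 7.04 in early life samples, 7.90, 7.60, 7.81 and 7.66 in peripubertal samples and 7.63, 7.59, 7.44 and 7.62 in control samples. All early life values lay below all others, and none was well above background. Dll4 was at least 1.30-fold lower in early life than in peripubertal samples (log2 difference −0.76, SE 0.12, limma adjusted p = 0.0371) and at least 1.15-fold lower than in control (log2 difference −0.59, SE 0.12, adjusted p = 0.0942). For both bounds the early life samples were held at the dimmest level that counts as measured. The call against peripubertal was lost when any of early life 1, 2 or 4, a peripubertal sample or control 1, 2 or 4 was left out (adjusted p up to 0.104), and under quantile scaling (0.0521), median centring (0.486), array means (0.112), with marked spots counted (0.0635) and with only both groups in the fit (0.0665). For early life against peripubertal 1 of 18 measured genes of 19 listed passed, a share to be set beside 0.386% of all probes, and the list's median was 0.07. In the other comparisons 0 of 18 passed each (medians 0.07 and −0.04), with Jag2 (−0.37) and Maml1 (0.44) next for early life against control and Notch4 (0.35), Dll3 (0.39) and Dll4 (0.17) of smallest p for peripubertal against control.

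Of the cell cycle inhibitors and cyclins, among which Cdkn1c acts, 0 of 16 measured of 20 listed passed for early life against control (median −0.04), 0 of 18 for peripubertal against control (−0.15) and 0 of 16 for early life against peripubertal (0.13). The 3 of smallest p were Ccna2 (0.91), Cdkn2b (−0.50) and Cdkn2d (−0.36, 2 early life values), then Cdkn2b (−0.68), Cdkn2d (−0.39) and Ccnd1 (−0.54), then Cdkn2c (0.70), Ccna2 (0.92) and Cdkn1a (0.83). Ccna2 encodes cyclin A2 of the S and G2 phases, and Cdkn2b and Cdkn2d encode inhibitors of the kinases CDK4 and CDK6. Limma adjusted p-values were 0.207 or more, 0.725 or more and 0.127 or more in these comparisons.

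Markers of other cell types were read in the same samples. Of 9 red cell markers 6 were measured. Their mean log2 deviation was −1.43 to −0.15 in early life, 0.29 to 1.83 in peripubertal and −1.07 to 1.36 in control samples, with early life below peripubertal in every sample. None of the 6 passed (smallest limma adjusted p = 0.102 for early life against peripubertal). Of 9 macrophage markers 8 were measured, all but Cd163, and their deviation was −0.47 to −0.02 in early life, −0.24 to 0.66 in peripubertal and −0.33 to 0.53 in control samples. All 8 endothelial markers were measured in at least 1 group, at −0.49 to 0.13, −0.22 to 0.39 and −0.33 to 0.39 in the same groups. The fibroblast, pericyte and meninges list, cells in which Igf2 is known to stay active in adults, had 11 of 12 markers measured, Dpt not being well above background in any channel, and ran from −0.34 to 0.65, −0.16 to 0.00 and −0.37 to 0.28. Its score was 0.42, 0.03, −0.34 and 0.65 in early life samples 1 to 4, so the early life samples lowest and highest for it were samples 3 and 4, and Mest probe 3 was also lowest in sample 3. The median log2 difference of its 9 genes tested was 0.29 for early life against peripubertal and 0.44 for early life against control, and none passed. The 7 pituitary stem and folliculostellate markers, all measured, ran from −0.15 to 0.30 in early life, −0.17 to 0.24 in peripubertal and −0.23 to 0.05 in control samples. Their highest scores were in early life samples 4 (0.30) and 1 (0.29), the samples highest for Mest probe 3, and their early life low was in sample 3. Other samples did not follow this order. Peripubertal sample 3 scored 0.24, though no peripubertal sample read above 12.92 for Mest probe 3, and control sample 3, at 13.80 for it, scored −0.02. Of 8 posterior lobe pituicyte markers 7 were measured, at −0.31 to 0.41, −0.30 to 0.46 and −0.19 to 0.14 in the same groups. The pituitary hormone cell list, measured for all 13 genes, ran from −0.27 to 0.20, −0.20 to 0.22 and −0.32 to 0.15, so the groups overlapped. Of 11 ovary markers, Cyp19a1, Cyp11a1, Amh, Fshr, Lhcgr, Zp3 and Oosp1 were not well above background in any channel. Foxl2 was so in 12 channels, Inha in 10, Gdf9 in 6 and Star in 3. The 3 measured, Foxl2, Inha and Gdf9, ran from −0.002 to 0.27 in early life, −0.22 to 0.11 in peripubertal and −0.22 to 0.13 in control samples. Early life sample 3 was the lowest early life sample on every one of these marker lists but that of red cells. Its low score was thus not particular to the fibroblast and stem cell lists. The part of other cells in the members' differences was not tested, and fewer cells of a type cannot be told apart from less RNA per cell in whole glands.

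**Figure D4:**
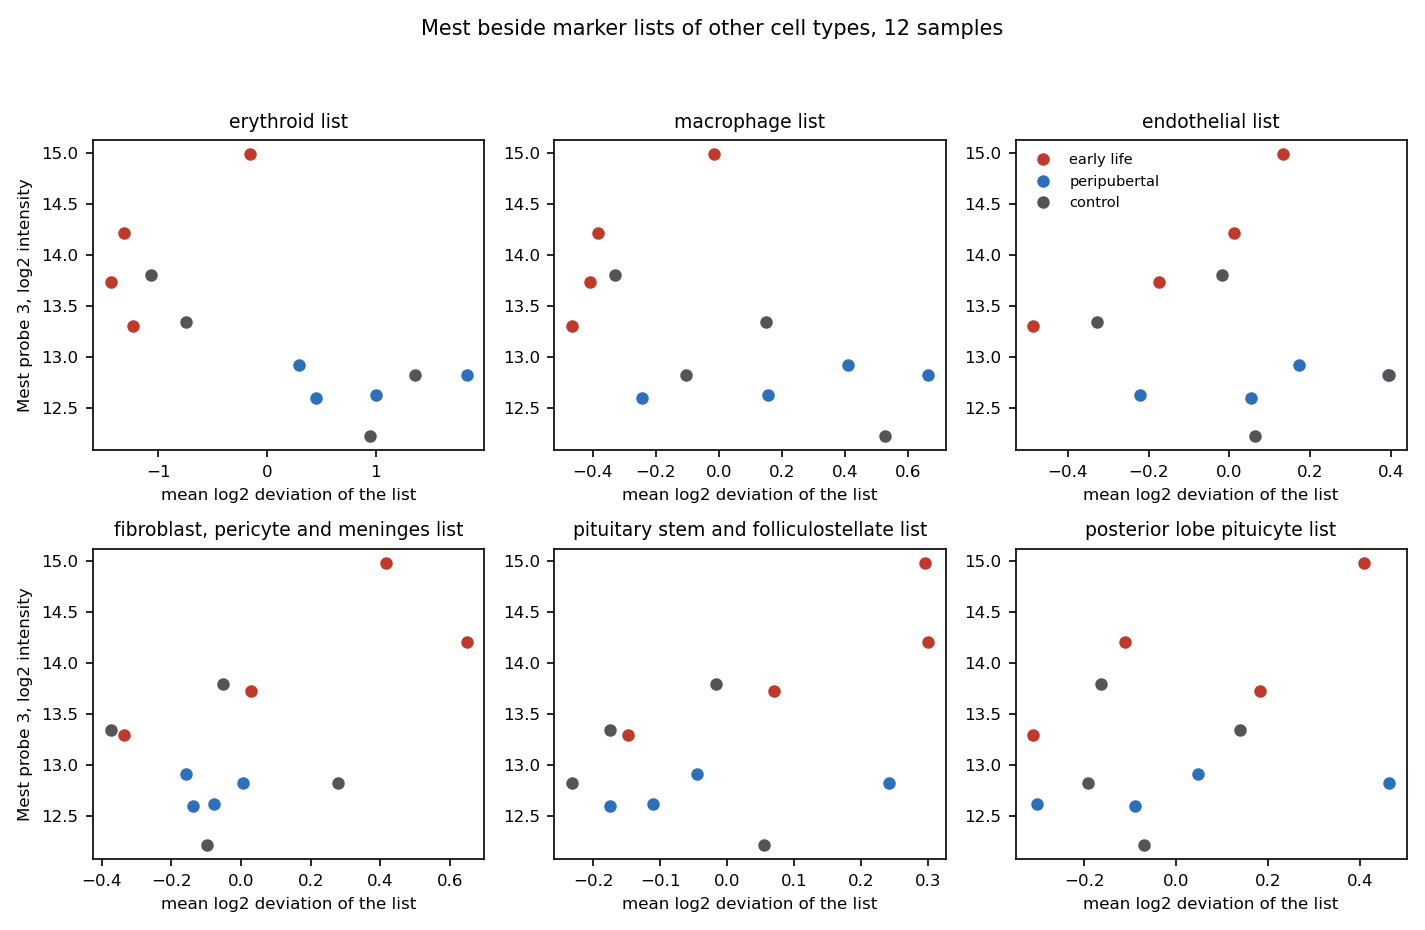
Log2 intensity of Mest probe 3 (vertical axis) beside the mean log2 deviation of 6 marker lists (horizontal axes, the erythroid list being that of red cells) in the 4 early life (red), 4 peripubertal (blue) and 4 control samples (grey). The 4 early life samples combine Mest levels of 13.30 to 14.98 with red cell deviations of −1.43 to −0.15, and the 4 peripubertal samples Mest levels of 12.60 to 12.92 with deviations of 0.29 to 1.83.

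The 3 member probes of largest spread over the samples were also compared with 11891 other named genes that had 12 values. Predicted gene models were left out, and the dye means were removed first. Nearest in pattern to Mest probe 3 were Srrm4os (Pearson r = 0.97), Homer1 (0.96) and Id1 (0.95). Nearest to Cdkn1c were Foxred2 (0.99), Sort1 (0.98) and Map3k12 (0.97), and nearest to Igf2 were Fan1, Kdm4a and Vmn2r90 (0.98 each). These are the highest of many correlations over 12 samples that share 6 arrays, and are given as a description.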

How the data were processed

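Total RNA of 12 pituitaries was measured on 6 Agilent 2-colour arrays. Per the file headers, the deposited scanner files were written by Agilent Feature Extraction (version 11.0.1.1, probe positions on mm9). Per the file headers, raw intensity is each spot's mean pixel brightness beside its local background, and processed intensity follows the software's own background and dye correction; marks of quality were deposited with both. Judged from the values, the authors' deposited table holds log2 of the median spot intensity less its background, with each column centred to a median of 0. That holds for 8 of 12 columns, under exchanged group names. It served as an alternative for early life against peripubertal only.

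Of 44397 features, 1377 controls were left out. With limma 3.58.1 in R 4.3.3, background was corrected by normexp (offset 50), dyes were matched by loess and arrays by Aquantile, and single-channel log2 intensity followed. Spots marked as outliers in either dye were dropped in both, after this scaling. They were dropped only then because they were much brighter than other spots (median log2 brightness of 11.09 to 12.58 in the arrays' channels, against 6.71 to 7.63). Spots of a probe were averaged. Probes well above background in at least 4 of 12 channels were kept. Symbols came from the reference table by accession (27234 probes), symbol (3576) or synonym (565), while 8054 had none. The fit held group and dye, with array as a random block (correlation 0.31, 8 residual and 3.47 prior degrees of freedom). Tests were two-sided, with Benjamini-Hochberg adjustment per comparison and a threshold of 0.05. A mean log2 deviation of a list is taken over its measured genes, the brightest probe each, from their mean over samples.

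The text names all 10 members with every probe. Of each list of acting genes it names those past the threshold, or else the 3 of smallest p per comparison, and it names Gh, Prl and Pomc. It also names the 3 genes nearest in pattern to each of the 3 members with 12 values and the largest spread. Members, lists and rules were chosen with earlier results of these data known. On simulated data the fit recovered 67%, 60% and 65% of probes given a log2 change of 1, and 90%, 89% and 96% of those given 2, in the comparisons of early life with control, of peripubertal with control and of early life with peripubertal, with 14 of 171, 14 of 163 and 9 of 170 calls false. With 2 arrays per group, the number of arrays limits precision, and the median SE over all probes was 0.18 in each comparison. Over the member probes the SE ran from 0.10 to 0.47, 0.10 to 0.54 and 0.10 to 0.47 in the same order of comparisons. Recovery at the SE of the member probes was not tested. Alternatives covered background, scaling, filters, outlier spots, gene-level values, array and replicate terms and samples left out. Some items are not reported here.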

Additional observations from a re-analysis of the deposited data

Results flagged for a closer look

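On 2 probes, 1 peripubertal sample stood far from the other 3. Mest probe 1 read 11.01 in peripubertal 4, against 10.29 to 10.35 in the other peripubertal samples. H19 probe 2 read 7.19 in peripubertal 4, against 7.07 to 7.09 in the others. These were 2 of the 47 sets of 4 samples examined (4.26%), and chance marks about 1 in 20.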

How the results depend on the processing

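Member probes past the threshold numbered 0 in every comparison run under 12 of the 16 settings other than leaving out a replicate. Without the array block they numbered 1 in each early life comparison (Meg3 probe 1). All probes then gave 784 of 23744 against control and 1587 of 23567 against peripubertal. In settings added after seeing the data, each early life comparison had 1 of 17 without the first early life array (Igf2). Over all probes the counts were 178 of 22253 against control and 244 of 22144 against peripubertal. Without the second array there were 4 of 14 against control and 5 of 14 against peripubertal, beside 2737 of 21992 and 3246 of 21853 probes. In both settings the 1 early life array that remained was assumed to vary like those of the other groups. Leaving out each replicate gave 0 to 1 in either early life comparison, with the 1 reached without early life 3, and 0 to 0 for peripubertal against control. Calls over all probes, 22 and 91 for early life against control and against peripubertal, and 5 for peripubertal against control, moved to 0 to 2737, 0 to 3246 and 0 to 32 over the settings. They moved to 6 to 694, 8 to 1348 and 0 to 3 when a replicate was left out, the highest early life counts coming without early life 3, and 366 and 341 without control 3.

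Replicate numbers did not pair the samples, since deviations of same-numbered samples correlated at −0.28 to 0.07. With the replicate block, 1 member passed for early life against control (Peg3 probe 1, −1.32, limma adjusted p = 0.0455) and 0 in the other comparisons, and all probes gave 268, 10 and 812 calls. Signs turned for Ndn (−0.017, early life against control), for Meg3 probe 2 (−0.10) and Peg3 probe 1 (−1.39) in peripubertal against control, and for Peg3 probe 1 (0.062) in early life against peripubertal.

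Other settings turned the sign of differences, most of them small, and the cause was not tested. For early life against control, Meg3 probe 3 was 0.099 with processed signals, 0.050 with quantile scaling and 0.34 with median centring, and Ndn was −0.032 with processed signals and −0.29 with outlier spots kept. Median centring moved the median of all probes to 0.13, 0.12 and 0.04, and gave Dlk1 0.066 and 0.19 and Plagl1 probe 1 0.038 for early life against control. It gave Plagl1 probe 4 0.38 for peripubertal against control, and Dlk1 probe 2 0.21 and H19 probe 2 −0.0012 for early life against peripubertal. For peripubertal against control, processed signals gave Cdkn1c −0.014 and Peg3 probe 1 −0.099, and kept outlier spots gave Mest probe 2 −0.11. Kept outlier spots gave Meg3 probe 3 −0.091 for early life against peripubertal. Gene means, taken over probes with all 12 values, gave Peg3 −0.16 and Mest −0.30 for peripubertal against control, against 0.029 on Peg3 probe 1 and 0.50 on Mest probe 2.

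Without the first early life array, early life against control was 0.090 for Peg3 probe 1, 0.049 for Plagl1 probe 1 and 0.15 for Plagl1 probe 2. Against peripubertal it was −0.068 for H19 probe 1, 0.062 and 0.15 for Peg3, −0.0996 for Grb10, and 0.018 and 0.32 for Plagl1 probes 1 and 2.

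The authors' deposited table exchanges the columns of the deficient groups, differs in scaling and counts the marked spots. Exchanging the names of both groups by itself turns the sign of their difference, so opposite signs there are no separate result. The part of the scaling and of the marked spots was not tested. With its columns as they are named, early life against peripubertal had the opposite sign for all 18 member probes tested but Dlk1 probe 2. It was 0.19 for Dlk1 probe 1, 0.43, −0.58 and −0.19 for Meg3, −0.046 and −0.30 for H19, −1.33 for Igf2 and −0.79 for Cdkn1c. It was 0.67 and 0.39 for Peg3, −0.18 for Grb10, −0.72, −0.86 and −1.38 for Mest, 0.084 and 0.11 for Plagl1 probes 1 and 2, 0.53 for Ndn and 1.01 for Dll4, with 0 members past the threshold.

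Leaving out each replicate turned the sign within these ranges. For early life against control they were −0.18 to 0.19 for Meg3 probe 3 and −0.37 to 0.39 for Ndn. Between early life and peripubertal they were −0.096 to 0.17 for H19 probe 1, −0.0079 to 0.047 for H19 probe 2, −0.16 to 0.058 for Plagl1 probe 2, −0.12 to 0.15 for Grb10, −0.034 to 0.30 for Meg3 probe 3 and −0.67 to 0.090 for Ndn. For peripubertal against control they were −0.071 to 0.16 and −0.21 to 0.066 for Dlk1, −0.071 to 0.11, −0.44 to 0.038 and −0.83 to 0.47 for Plagl1 probes 1, 3 and 4, −0.17 to 0.25 for Cdkn1c, and −0.30 to 0.60 and −0.29 to 0.057 for Meg3 probes 2 and 3. Igf2, Grb10 and H19 probe 2 were not well above background in every channel, and H19 probe 2 in no early life channel, so their differences are between dim values.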

Other observations

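The 4 control columns of the authors' value table equal no scanned channel (nearest Pearson r 0.87 to 0.89), and several members read far apart between the table's 8 deficient-diet columns and those control columns. On the table's log2 scale Dlk1 probe 2 read 8.81 to 9.67 in the deficient-diet columns, against 0.72 to 3.92 in the control columns. Meg3 probe 3 read 8.38 to 9.32 in the deficient-diet columns, against 3.10 to 5.26 in the control columns, and Mest probe 3 read 4.08 to 7.38, against 0.29 to 1.94. H19 probe 1 was lower in the deficient-diet columns, at −0.43 to 1.44, against 2.61 to 4.29 in the control columns, while Cdkn1c overlapped, at 1.91 to 4.61 and 1.80 to 3.31.

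In the same table the pituitary gene Prl read 8.93 to 10.40 in the deficient-diet columns, against −4.12 to −2.01 in the control columns, and Pomc 9.27 to 10.21, against 0.03 to 1.57. Cyp11a1, which encodes an enzyme of steroid synthesis in the ovary, read −3.05 to −1.41 in the 5 deficient-diet columns with a value, against 7.86 to 9.58 in the control columns. Inha, which encodes the inhibin alpha chain, read 2.17 to 3.14 in the deficient-diet columns, against 7.81 to 8.99 in the control columns. Cyp11a1 was not well above background in any of the 12 scanned channels. The table's control columns were used in no comparison.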
